A study of Mus musculus with 75 samples.

Results

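Tumors taken at 10 months of age from male C57Bl/6 mice exposed through their mothers to tributyltin (TBT), an organotin compound, were compared with liver the labels call uninvolved, from high-risk TBT-exposed mice of the same age. The 10-month libraries whose risk label reads Tumor (7) or high risk with uninvolved liver (6) were taken, 13 of 75 libraries in all. Dams received TBT in their drinking water, a daily 0.5 mg for each kg of body weight at 3.07 µM, up to weaning. Exposure was thus shared by both groups. Livers of 6 vehicle and 5 low-risk TBT-exposed mice of 10 months are quoted beside some genes for their level, and entered no test here. Mouse numbers in the titles pair 6 tumors with uninvolved liver (mice 1, 3, 5, 6, 7 and 12), and tumor 11 has no partner. The labels do not give the size, number or histology of the tumors, nor how risk was assigned.

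Liver cancer arises mostly from hepatocytes, the cells that make plasma proteins, bile acids and much of the body's cholesterol. In such tumors, genes of the fetal liver such as H19 and Afp can come back on, cells divide, and programs against oxidative stress, driven by the transcription factor NRF2, or of Wnt signaling can be switched on. Liver around a tumor is often itself diseased, with scarring, macrophages and dividing cells, so that it is no healthy control. In bulk tissue, fewer cells of a type and less RNA per cell cannot be told apart.

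Both groups looked like liver. Alb, which encodes albumin, stood at 65937 ± 13829 CPM (counts per M scaled counts, SD, n = 7) in tumors and 62282 ± 10048 (n = 5) in uninvolved liver, and its log2 fold change was 0.03 (SE 0.17, edgeR adjusted p 0.912). Its sign turned under other settings. The list of proteins that hepatocytes secrete summed to between 133400 and 198470 CPM in tumors and between 122760 and 189600 in uninvolved liver. Of the 10 pancreatic acinar markers 1 could be tested, and their sum lay between 0.104 and 4.23 CPM in tumors and between 0.142 and 8.61 CPM in uninvolved samples.

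The libraries differed in ways that run with the groups, so that tissue and library cannot be told apart. All carry the same sequencing batch label. Totals ran from 22.5 to 27.9 M counts in tumors and from 34.8 to 44.6 M in uninvolved liver, without overlap (difference -13.4 M, exact permutation p 0.00126, adjusted over 5 measures 0.0021). Mitochondrial genes held 3.16% ± 0.27 of counts in tumors (SD, n = 7) and 5.01% ± 0.72 in uninvolved samples (n = 5), and small noncoding RNA genes 0.978% ± 0.127 and 1.70% ± 0.503, again without overlap in either (adjusted exact permutation p 0.0021 for both, the smallest raw p of the design being 0.00126). Vehicle and low-risk libraries lay below the uninvolved ones too, at 26.2 to 33.5 M counts. Mitochondrial genes held 2.94% to 3.83% and small noncoding RNA genes 0.838% to 1.13% of their counts. At equal depth 22856 ± 537 genes were detected in tumors and 25161 ± 1420 in uninvolved samples (adjusted exact permutation p 0.00316). The uninvolved libraries numbered 3 and 6 were nearly alike, with a chi-square of 4.07 per gene against 36.02 for the next closest of all pairs, and were summed to 1 sample, which left 5. Uninvolved livers 1, 5 and 7 lay apart from the other uninvolved samples on the first principal component. The nuclear RNA Malat1 stood at 4177 to 4962 CPM in these 3 and at 1131 and 1264 CPM in liver 12 and in the sum of 3 and 6. Results of part of the lists and of part of the genes are therefore also given without livers 1, 5 and 7, a fit that leaves 2 uninvolved samples. Of 84 named genes called with all samples, 28 kept the call in that fit. Where it is not given for a gene or a list, the call or the counts need not hold there.

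**Figure D1:**
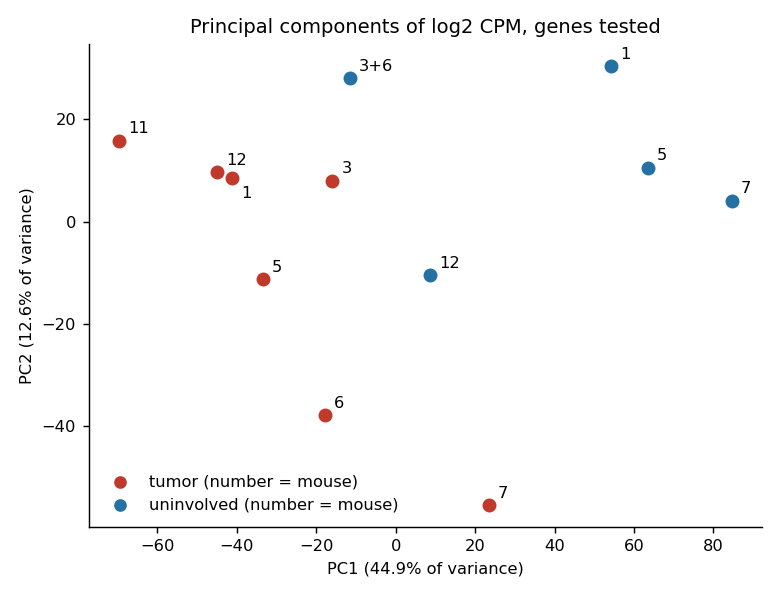
First 2 principal components of log2 CPM over the genes tested, 44.9% and 12.6% of the variance, with a point per sample (red tumor, blue uninvolved, labelled by mouse). Tumor samples other than tumor 7 lie left of 0 on the first axis. The sum of uninvolved livers 3 and 6 also lies left of 0, to the right of these tumors, and uninvolved livers 1, 5 and 7 lie farthest to the right.

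Of 16362 genes tested, 2961 differed between tumors and uninvolved liver (quasi-likelihood test of edgeR, Benjamini-Hochberg adjusted p below 0.05), which is 18.1% of genes. In tumors 1235 were higher (7.55%) and 1726 lower (10.5%), and 5708 had an unadjusted p under 0.05. The p-values measure the spread between these samples, which the labels do not further describe. Changes of over 2-fold were 223 upward and 928 downward. In 1239 genes (7.57%) no tumor overlapped an uninvolved sample, 798 with tumors above and 441 below. With GC content and gene length trends removed the split was 2236 higher (13.7%) against 1567 lower (9.58%), 3803 in all or 23.3%, so that 58.8% of calls were higher in place of 41.7%.

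Whether equal numbers in the titles mark the same animal is not stated beyond those titles, and only tumor and uninvolved liver 7 deviated clearly together. Pairing by mouse gave 1920 genes over 6 pairs (11.7%, 1016 higher or 6.19% and 904 lower or 5.51%), which count uninvolved libraries 3 and 6 as separate mice. Over the 4 pairs without mice 3 and 6, 3037 genes passed (18.2%, 1540 higher or 9.21% and 1497 lower or 8.95%). These pairs, mice 1, 5, 7 and 12, include the uninvolved livers 1, 5 and 7 that lay apart, and so does every 4-pair count below. Counts of a paired fit below are to be set beside the shares of that fit given here. Without livers 1, 5 and 7 the unpaired fit called 1057 genes (6.23%), 737 higher (4.34%) and 320 lower (1.88%), of which 509 had been called with all samples. Leaving out single uninvolved liver 1, 5 or 7 left 1580, 1590 and 1611 genes. A set of 325 genes, 183 higher and 142 lower, was called in the unpaired fit, on leaving out each of the 12 samples, in both paired fits and without livers 1, 5 and 7.

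Small noncoding RNAs were among the genes with the smallest p-values, beside others such as the ribosomal protein gene Rpl24. Sequences of small RNAs are shown first. U1 and U12 are RNAs of the spliceosome, the particle that removes introns, U12 serving the rare introns of the minor class. H/ACA small nucleolar RNAs (snoRNAs) guide pseudouridylation of other RNAs. The first pair sets U1 beside a variant gene, followed by U12, and then by 2 snoRNA genes that were lower in tumors and 2 that were higher. Sequences are of the annotated transcripts in GENCODE M21 (GRCm38), written as DNA from 5′ to 3′. Capitals mark in Gm22614 the bases that differ from Rnu1a1, in Rnu12 the stretch ATTTTTG, and in the 4 snoRNA genes an ACA that ends 3 bases before the end.
Rnu1a1: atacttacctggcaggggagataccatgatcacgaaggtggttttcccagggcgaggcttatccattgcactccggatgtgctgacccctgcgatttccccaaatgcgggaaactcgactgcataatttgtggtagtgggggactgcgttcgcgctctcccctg
Gm22614: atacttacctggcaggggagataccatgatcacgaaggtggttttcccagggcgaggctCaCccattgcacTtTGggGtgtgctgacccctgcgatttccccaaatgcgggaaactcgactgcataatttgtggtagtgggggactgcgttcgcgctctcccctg
Rnu12: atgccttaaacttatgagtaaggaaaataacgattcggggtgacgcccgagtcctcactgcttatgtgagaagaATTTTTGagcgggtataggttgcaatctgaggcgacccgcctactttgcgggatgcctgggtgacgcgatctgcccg
Snora23: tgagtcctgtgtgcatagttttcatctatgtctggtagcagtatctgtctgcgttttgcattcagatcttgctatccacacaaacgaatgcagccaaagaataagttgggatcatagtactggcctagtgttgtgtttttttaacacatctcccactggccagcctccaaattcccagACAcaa
Gm25291: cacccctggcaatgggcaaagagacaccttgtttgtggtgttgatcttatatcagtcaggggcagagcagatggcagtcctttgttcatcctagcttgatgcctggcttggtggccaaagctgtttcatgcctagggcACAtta
Snora78: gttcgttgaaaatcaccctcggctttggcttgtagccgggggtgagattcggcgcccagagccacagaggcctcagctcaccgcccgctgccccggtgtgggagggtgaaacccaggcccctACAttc
Gm23442: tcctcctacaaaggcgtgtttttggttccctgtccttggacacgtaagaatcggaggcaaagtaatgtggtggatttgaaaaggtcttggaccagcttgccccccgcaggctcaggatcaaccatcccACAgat

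Read on the gene's own strand, an ACA at this place was found in 276 of 1507 snoRNA genes (18.3%) and in 35 of the 42 genes named Snora (83.3%), whatever their level. ATTTTTG occurred in 46 of 1383 annotated snRNA genes (3.33%). Gm22614 matched Rnu1a1 at 159 of 165 aligned positions (96.4%), with 5 mismatches and 1 gap base. These matches describe the printed letters alone.

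Rnu12 (chromosome 15, 83149644 to 83149794) ran from 0.620 to 1.40 CPM in the 7 tumors, median 1.17, and from 9.21 to 15.7 CPM in the 5 uninvolved samples, median 9.86. Its log2 fold change was -3.34 (SE 0.20, edgeR adjusted p 1.54e-06), and 53.9% of its 50-base stretches also occur in transcripts of other loci, which makes its count uncertain. Snora23 (chromosome 7, 110046364 to 110046547) stood at 2.06 to 2.87 CPM in tumors, median 2.48, and at 14.5 to 40.4 in uninvolved samples, and fell by 3.26 on the log2 scale (SE 0.21, edgeR adjusted p 1.54e-06). For both genes every tumor lay under every uninvolved sample, and the fall was as large without livers 1, 5 and 7 (-3.51 and -3.64). Vehicle and low-risk livers lay near tumors, at 0.664 to 1.09 CPM of Rnu12 and 1.78 to 3.74 CPM of Snora23.

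Gm25291 (chromosome 11, 51737779 to 51737922), an unnamed snoRNA gene, ran from 12.5 to 22.8 CPM in tumors and from 59.9 to 118 in uninvolved samples (log2 fold change -2.34, SE 0.19, edgeR adjusted p 7.39e-06). A pair of others went the opposite way. Snora78 (chromosome 17, 24719676 to 24719803) stood at 6.18 to 9.75 CPM in tumors and 1.34 to 2.49 in uninvolved samples, and rose by 1.995 on the log2 scale (SE 0.18, edgeR adjusted p 3.09e-05). Gm23442 (chromosome 17, 35162563 to 35162696) stood at 2.25 to 3.63 and 0.334 to 0.519 CPM, and rose by 2.65 (SE 0.22, edgeR adjusted p 9.70e-06). The 4 printed snoRNA genes were picked as 2 lower and 2 higher with the same end box, so their opposite directions are no result. None of these 3 overlapped between the groups, and 34.7% of the stretches of Gm25291 are shared.

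Of 90 small noncoding RNA genes tested, 20 were higher in tumors (against 7.55% of all genes), 29 were lower (against 10.5%), and 41 did not pass. In 35 the groups did not overlap, beside 7.57% of all genes. Of the 20 snRNA genes among the 90, 11 have most of their stretches at other loci, so their counts are uncertain. The share of counts from small noncoding RNA genes also differed between the groups, and its part in these results was not tested. Among 47 snoRNA genes 12 rose, with a median length of 133 bases (70 to 144), 15 fell, with a median of 144 (70 to 246), and 20 did not pass, with a median of 132. Of the called small RNA genes 32 lie within a host gene that could be tested. The host was called the same way in 4, the opposite way in 5 and not at all in 23, beside 18.1% of all genes called in either direction. Whether host calls go with those of the small RNA genes was not tested. Snord17, a box C/D snoRNA, fell by 0.94 on the log2 scale (SE 0.17, edgeR adjusted p 0.00444), and Rn7sk, the 7SK RNA that restrains transcription elongation, fell by 1.07 (SE 0.18, edgeR adjusted p 0.00329), although 68.1% of the stretches of Rn7sk are shared.

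The U1 genes show how far such counts can be read. Rnu1a1 (chromosome 11, 87422867 to 87423030) rose by 1.42 on the log2 scale (SE 0.23, edgeR adjusted p 0.0024) and Gm22317 by 1.76 (SE 0.29, edgeR adjusted p 0.00257), while Gm22068 fell by 1.53 (SE 0.23, edgeR adjusted p 0.00179). These 3 genes have identical sequences (of 7 annotated copies, 3 tested), so reads cannot tell them apart and their opposite changes are uncertain. Gm22614 (chromosome 3, 96488729 to 96488893), the variant printed above and chosen after its values were seen, was at 0 CPM in 6 of 7 tumors and at 1.09 CPM in tumor 12. In uninvolved samples it stood at 7.24 to 41.7 CPM (edgeR adjusted p 0.000915), low-risk livers were at 0 and vehicle livers at most at 0.445. All of its 50-base stretches occur at other loci as well, so this gene too is uncertain. By the name of the deposited count table, counts went through a batch adjustment. Its effect on such zeros and on genes of identical sequence is not known.

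**Figure D2:**
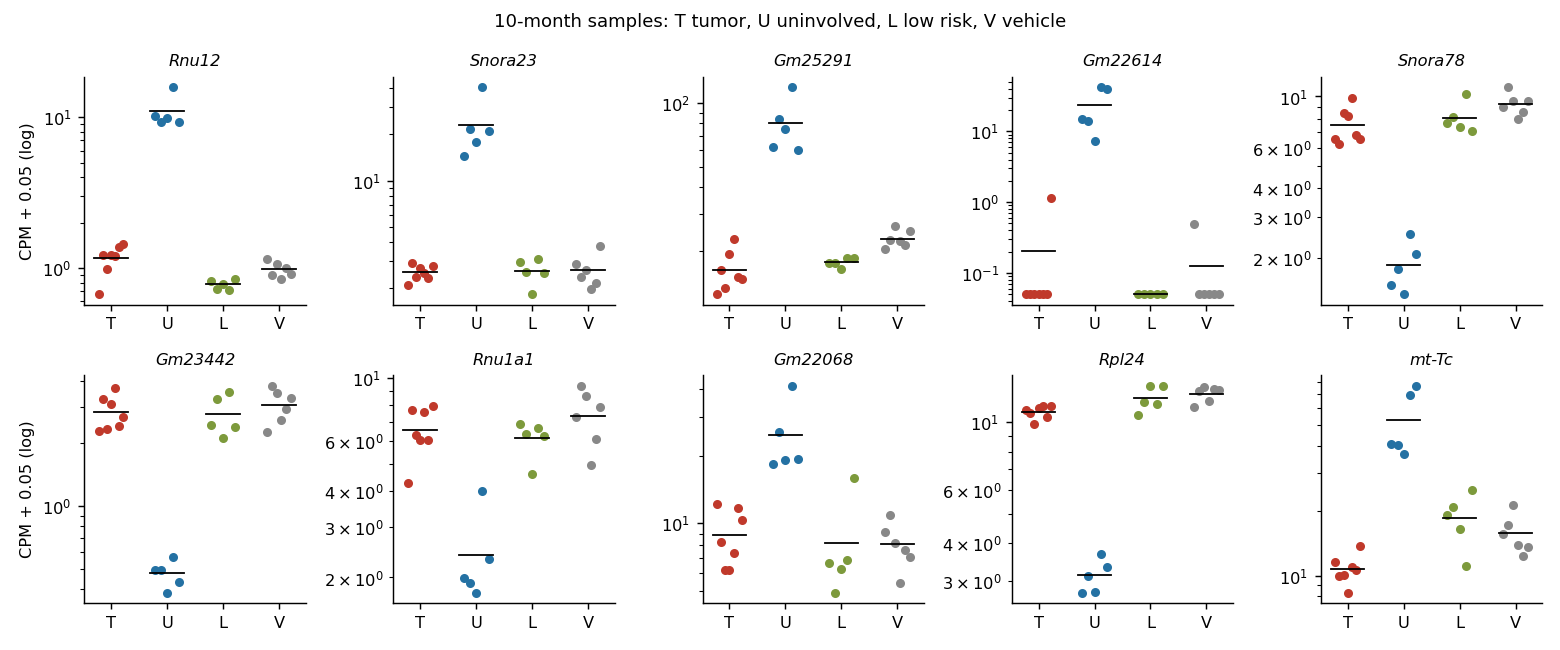
CPM (log axis, 0.05 added) of 10 genes in each 10-month sample: T tumor, U uninvolved, L low risk, V vehicle, with black lines at the means. In Rnu12, Snora23, Gm25291, Gm22614, Gm22068 and mt-Tc tumors lie under the uninvolved samples, in Snora78, Gm23442, Rnu1a1 and Rpl24 above them.

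Most mitochondrial RNA genes were lower in tumors. Of 15 mitochondrial protein and ribosomal RNA genes tested 10 fell, 3 rose and 2 did not pass (median log2 fold change -0.71, against -0.01 over all genes), and of 16 mitochondrial transfer RNA genes 10 fell and 0 rose (median -1.02). Over all genes 10.5% fell and 7.55% rose. Without livers 1, 5 and 7, 5 genes of the first list fell and 3 rose (median -0.37). Of the transfer RNA genes 6 fell and 0 rose there (median -1.04), beside 1.88% and 4.34% of all genes. mt-Nd6, a complex I subunit encoded on the other strand than the rest of the protein genes, stood at 151 to 316 CPM in tumors, median 204, and at 422 to 765 in uninvolved samples, median 486. It fell by 1.39 on the log2 scale (SE 0.19, edgeR adjusted p 0.00105), with no overlap. mt-Rnr1, the small ribosomal RNA, stood at 905 to 1493 CPM in tumors and 2281 to 2883 in uninvolved samples (log2 fold change -1.15, SE 0.13, edgeR adjusted p 0.000192).

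The transfer RNA for cysteine, mt-Tc, fell by 2.35 (SE 0.18, edgeR adjusted p 7.29e-06), from 36.7 to 76.4 CPM in uninvolved samples to 8.29 to 13.7 CPM in tumors. mt-Co2 and mt-Co3, subunits of cytochrome oxidase, rose by 1.51 (SE 0.16, edgeR adjusted p 0.000139) and 1.97 (SE 0.47, edgeR adjusted p 0.0153). Their stretches are shared with other loci at 100% and 99.9%, so both are uncertain, whereas mt-Nd6, mt-Rnr1 and mt-Cytb share 0%. The share of counts from mitochondrial genes differed between the groups in the same direction as most of these genes, and its part in the result was not tested. With GC content and length trends removed 5 of the 15 genes rose and 6 fell, and of the 16 transfer RNA genes 1 rose and 5 fell (median -0.37).

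Of 87 nuclear genes of oxidative phosphorylation, 20 were higher in tumors (beside 7.55% of all genes), 0 were lower and 67 did not pass, with a median log2 fold change of 0.18. Atp5e, a subunit of ATP synthase, stood at 66.6 to 88.0 CPM in tumors and 32.7 to 58.0 in uninvolved samples (log2 fold change 0.93, SE 0.13, edgeR adjusted p 0.00105). Ndufa2, of complex I, stood at 54.0 to 64.9 and 31.6 to 41.3 CPM (0.71, SE 0.09, edgeR adjusted p 0.000552). Each was higher in 6 of 6 pairs, with no overlap. Vehicle and low-risk livers held 91.6 to 112 CPM of Atp5e and 53.7 to 65.5 of Ndufa2, so tumors were the nearer of the groups to them. Without livers 1, 5 and 7 the counts of this list were 6 higher and 3 lower, with a median of 0.02, which ends the one-sided split.

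Of 39 proteasome genes 10 rose and 1 fell (median 0.23), beside 7.55% of all genes higher and 10.5% lower. Without livers 1, 5 and 7 there were 5 and 3. Psmb4, a core subunit, stood at 91.6 to 121 CPM in tumors and 50.1 to 70.2 in uninvolved samples (log2 fold change 0.72, SE 0.10, edgeR adjusted p 0.00127). Of 78 ribosomal protein genes 16 rose and 7 fell (median 0.20), beside 7.55% and 10.5% of all genes, and without those livers 4 and 4. Rpl24 ran from 9.80 to 11.3 CPM in tumors and from 2.70 to 3.64 in uninvolved samples, and rose by 1.76 (SE 0.11, edgeR adjusted p 1.54e-06), with 49.3% of its stretches shared. Rpl22l1, a paralog of Rpl22, rose by 1.60 (SE 0.12, edgeR adjusted p 4.50e-06), from 4.78 to 5.90 CPM to 12.7 to 19.6 CPM, with 12.8% shared. Rpl13a was lower, by 0.64 on the log2 scale (SE 0.15, edgeR adjusted p 0.0135). Among ribosomal protein pseudogenes 14 of 23 rose and 1 fell, and more than 50% of the stretches are shared in 17 of these 23.

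Of all genes tested, 404 (2.47%) have more than 50% of their stretches at other loci. Among genes called higher these were 149 (12.1%) and among genes called lower 17 (0.986%). Within the 325 genes called in every fit they were 43 of 183 higher (23.5%) and 10 of 142 lower (7.04%). Median GC content was 49.5% over all genes tested, 44.4% in those 183 and 53.9% in those 142. The part of shared sequence and of GC content in these calls was not tested beyond the fit with GC and length trends removed, which called all 183 and 139 of the 142.

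Several genes of fetal liver differed widely from tumor to tumor. H19, an imprinted long RNA of fetal liver, stood at 25.96, 37.6, 378, 705, 5.50, 243 and 1481 CPM in tumors 1, 3, 5, 6, 7, 11 and 12. Uninvolved livers 1, 5, 7 and 12 had 19.4, 25.1, 7.30 and 46.4 CPM, and the sum of 3 and 6 had 547. The groups overlapped and the difference of 1.66 on the log2 scale (SE 1.31, edgeR adjusted p 0.386) did not pass. Vehicle livers had at most 0.565 CPM and low-risk livers at most 7.66. Within mice the difference in log2(CPM + 0.5) ran from -3.85 in mouse 3 to 4.98 in mouse 12. The nearly alike uninvolved libraries 3 and 6 held 546.9 and 546.7 CPM, so the pairing behind the value of mouse 3 is uncertain.

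Igf2, the fetal growth factor beside H19, was at 9.004 CPM in tumor 5 and 4.92 in tumor 6 and at most 0.244 in the other tumors. Dlk1, a fetal imprinted gene, was at 39.4 CPM in tumor 6 and at most 0.730 in the others, and neither gene passed the filter on low counts. Afp, the fetal counterpart of albumin, ran from 4.04 to 17.1 CPM in tumors and from 2.90 to 4.52 in uninvolved samples (log2 fold change 1.02, SE 0.35, edgeR adjusted p 0.0586), and passed on leaving out tumor 7 (0.037) or tumor 3 (0.0433). Gpc3, a glypican used as a liver cancer marker, ran from 1.02 to 9.83 CPM, with the top value in tumor 6, and from 1.87 to 2.24 (edgeR adjusted p 0.31). H19 was thus highest in tumor 12, Igf2 in tumor 5, and Dlk1 and Gpc3 in tumor 6.

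Of 17 genes of the list of oncofetal and tumor markers 2 rose and 0 fell (median 0.67), beside 7.55% of all genes higher. In the 4 pairs 8 of the 17 were higher (median 1.18, beside 9.21% of all genes in that fit), in the 6 pairs 1, and without livers 1, 5 and 7 0. Spink1, a secreted trypsin inhibitor, stood at 0.443 to 80.3 CPM in tumors, highest in tumors 1 and 11, and 0.206 to 4.61 in uninvolved samples. Its difference of 3.85 on the log2 scale (SE 1.21, edgeR adjusted p 0.0443) did not pass in 6 pairs (0.129), without livers 1, 5 and 7 (2.92, adjusted p 0.429) or on leaving out any of 8 single samples (tumors 1, 3, 5 and 11, uninvolved 1, 5, 7 and 12, 0.0527 to 0.108). Cela1 (chromosome 15, 100674421 to 100687921), an elastase, ran from 10.1 to 133 CPM and from 3.62 to 16.1 CPM. It rose by 2.51 (SE 0.69, edgeR adjusted p 0.0262) and in 6 of 6 pairs, with the call lost without liver 1, 5 or 7 singly (0.0638 to 0.071) or together (1.97, adjusted p 0.347). Cela1 stood at 17.7 to 46.8 CPM in vehicle and low-risk livers, whereas Spink1 was at most 0.0811 there.

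Targets of NRF2 were higher in part. Of 20 tested 8 rose and 0 fell, with a median of 0.51, against 7.55% of all genes called higher. Slc7a11, the cystine importer, stood at 30.4, 5.70, 103, 27.3, 2.44, 90.1 and 10.1 CPM in tumors 1, 3, 5, 6, 7, 11 and 12, and at 2.52 to 8.13 CPM in uninvolved samples, with the sum of 3 and 6 on top. It rose by 3.24 (SE 0.86, edgeR adjusted p 0.0227). Nqo1, a quinone reductase, ran from 15.3 to 108 CPM and from 8.48 to 23.5 CPM (1.69, SE 0.49, edgeR adjusted p 0.0309), and the groups overlapped through the sum of 3 and 6. Srxn1, which repairs peroxiredoxins, ran from 62.9 to 243 and from 43.4 to 109 CPM (1.32, SE 0.35, edgeR adjusted p 0.023).

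Abcc4, an efflux pump, rose by 1.52 (SE 0.43, edgeR adjusted p 0.0294), Gsta1, a glutathione transferase, by 2.44 (edgeR adjusted p 0.0288, 90.5% of stretches shared) and Txnrd1, a thioredoxin reductase, by 0.55 (edgeR adjusted p 0.0235). Gclm and Hmox1, for glutathione synthesis and heme breakdown, had log2 fold changes of 0.23 and 0.02 and did not pass. Slc7a11 was lowest in tumors 7 and 3. None of the 20 passed in 6 pairs (Slc7a11 0.117, Nqo1 0.0929, Srxn1 0.0821, Abcc4 0.0934) or without those 3 livers (0.327, 0.414, 0.4 and 0.398), where the folds of these 4 were 2.70, 1.23, 0.84 and 1.13. In the 4 pairs 7 of the 20 were higher, beside 9.21% of all genes in that fit, Slc7a11 not among them (0.0571). Leaving out liver 1, 5 or 7 alone ended the calls of these 4 genes (0.0574 to 0.0816). Without tumor 1 Nqo1 (0.0545), without uninvolved 12 Nqo1 (0.0546) and without tumor 11 Abcc4 (0.0536) also missed.

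**Figure D3:**
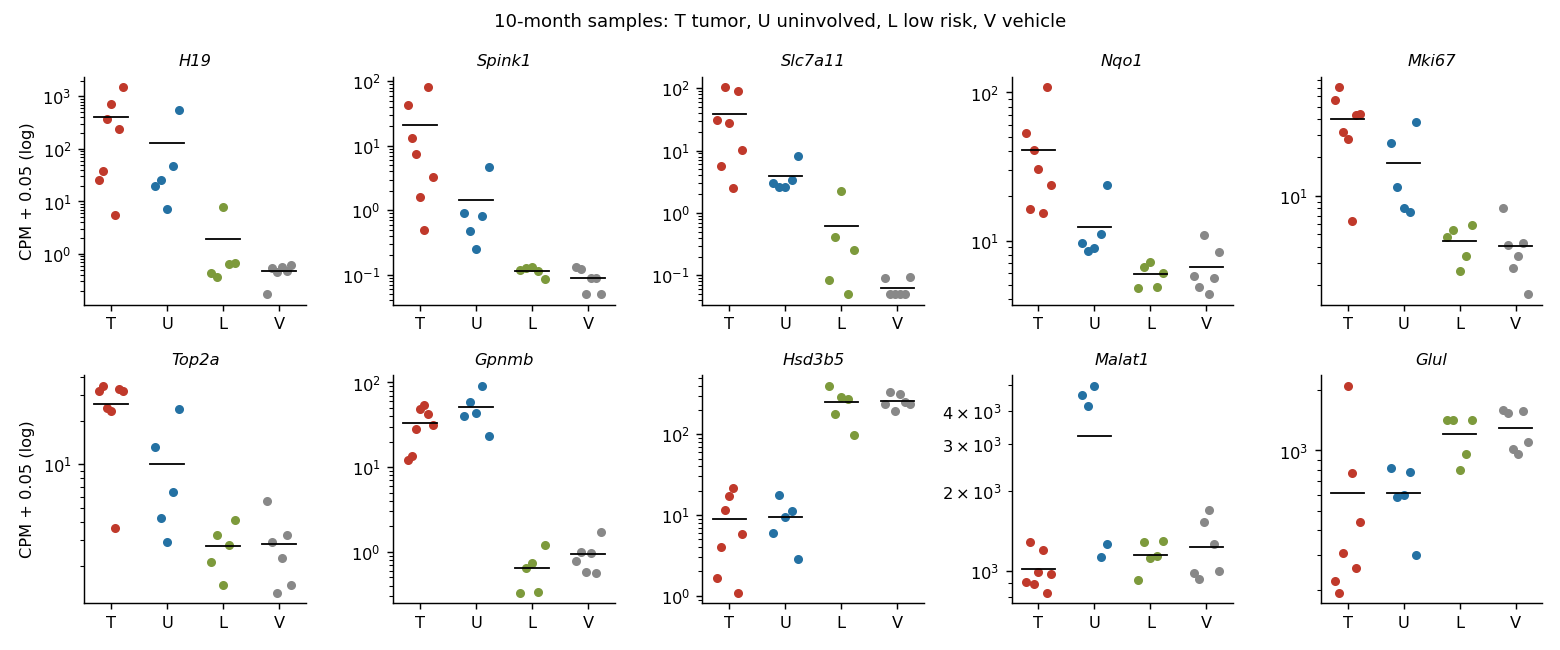
CPM (log axis, 0.05 added) of 10 genes in each 10-month sample: T tumor, U uninvolved, L low risk, V vehicle, with black lines at the means. H19 spans from 5.50 to 1481 CPM among tumors, Gpnmb and Hsd3b5 overlap between T and U, and Malat1 is high in 3 uninvolved livers.

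Spp1 (osteopontin, a secreted protein of ductal cells, macrophages and tumor cells) stood at 123 to 766 CPM in tumors, median 251, and at 72.4 to 180 in uninvolved samples, median 118. It rose by 1.49 (SE 0.43, edgeR adjusted p 0.0309) and in 6 of 6 pairs. The call was lost without livers 1, 5 and 7, where the fold was 1.34 (0.291), or on leaving out tumor 1 or 5 or uninvolved 5, 7 or 12 (0.0515 to 0.0817). Vehicle and low-risk livers had 29.7 to 50.8 CPM. The ductal keratin Krt19 ran from 1.88 to 5.84 and from 2.11 to 5.17 CPM (log2 fold change -0.06, edgeR adjusted p 0.898), with a sign that turned in several fits. Tm4sf4, a tetraspanin-like membrane protein of liver, rose by 1.32 (SE 0.27, edgeR adjusted p 0.00733), from 69.1 to 160 CPM to 151 to 372 CPM. The tubulin Tubb2a rose by 1.26 (SE 0.28, edgeR adjusted p 0.0112), with 49.6% of stretches shared. Without livers 1, 5 and 7 the folds of Tm4sf4 (0.85, adjusted p 0.17) and Tubb2a (0.91, adjusted p 0.179) did not pass.

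All 20 genes of the mitosis list had a positive log2 fold change, with a median of 1.10, yet 0 passed unpaired with all samples (edgeR quasi-likelihood), and 6 had an unadjusted p under 0.05. Mki67, a marker of dividing cells, stood at 55.8, 70.5, 31.4, 27.8, 6.29, 42.6 and 43.7 CPM in tumors 1, 3, 5, 6, 7, 11 and 12, and at 26.1, 11.7, 7.96, 7.41 and 37.5 in uninvolved 1, 5, 7, 12 and the sum of 3 and 6. Its log2 fold change was 1.09 (SE 0.52, edgeR adjusted p 0.158), and the adjusted p was 0.0481 without tumor 7. With DESeq2 it was 0.136 in Mki67. Top2a, which untangles DNA, ran from 3.59 (tumor 7) to 34.6 CPM and from 2.85 to 23.8 CPM (1.33, SE 0.55, edgeR adjusted p 0.108), and passed without tumor 7 (0.0306), without the sum of 3 and 6 (0.028) and in 4 pairs (0.0235). In the 4 pairs, which include livers 1, 5 and 7, 11 of the 20 mitosis genes were higher, beside 9.21% of all genes in that fit. In the 6 pairs 2 were higher, beside 6.19% of all genes, and without livers 1, 5 and 7 none.

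Vehicle and low-risk livers had 1.65 to 7.97 CPM of Mki67, under the median of the uninvolved samples (11.7). Of 21 DNA replication genes 2 rose and 0 fell, beside 7.55% of all genes higher. Pcna, the sliding clamp, stood at 20.1 to 31.8 CPM in tumors and 14.8 to 19.3 in uninvolved samples (0.58, SE 0.12, edgeR adjusted p 0.007). Prim1, the primase subunit, rose by 1.02 (SE 0.24, edgeR adjusted p 0.0134). Without livers 1, 5 and 7 neither Pcna (0.49, edgeR adjusted p 0.114) nor Prim1 (0.78, edgeR adjusted p 0.177) passed. Of the 21, 12 were higher in the 4 pairs, beside 9.21% of all genes in that fit. Esco2, an acetyltransferase of cohesin, rose by 2.33 (SE 0.61, edgeR adjusted p 0.0219). The call was lost without liver 1, 5 or 7 singly (0.0503 to 0.0614) or together (1.92, adjusted p 0.279). Of 47 clustered histone genes 12 rose and 1, Hist2h4, fell (median 0.62), beside 7.55% of all genes higher and 10.5% lower. Hist1h3h rose by 2.97 (SE 0.53, edgeR adjusted p 0.00408). More than 50% of the stretches are shared in 18 of the 47, 93.9% in Hist1h3h, so single histone genes are uncertain, and 0 of the list rose without livers 1, 5 and 7.

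**Figure D4:**
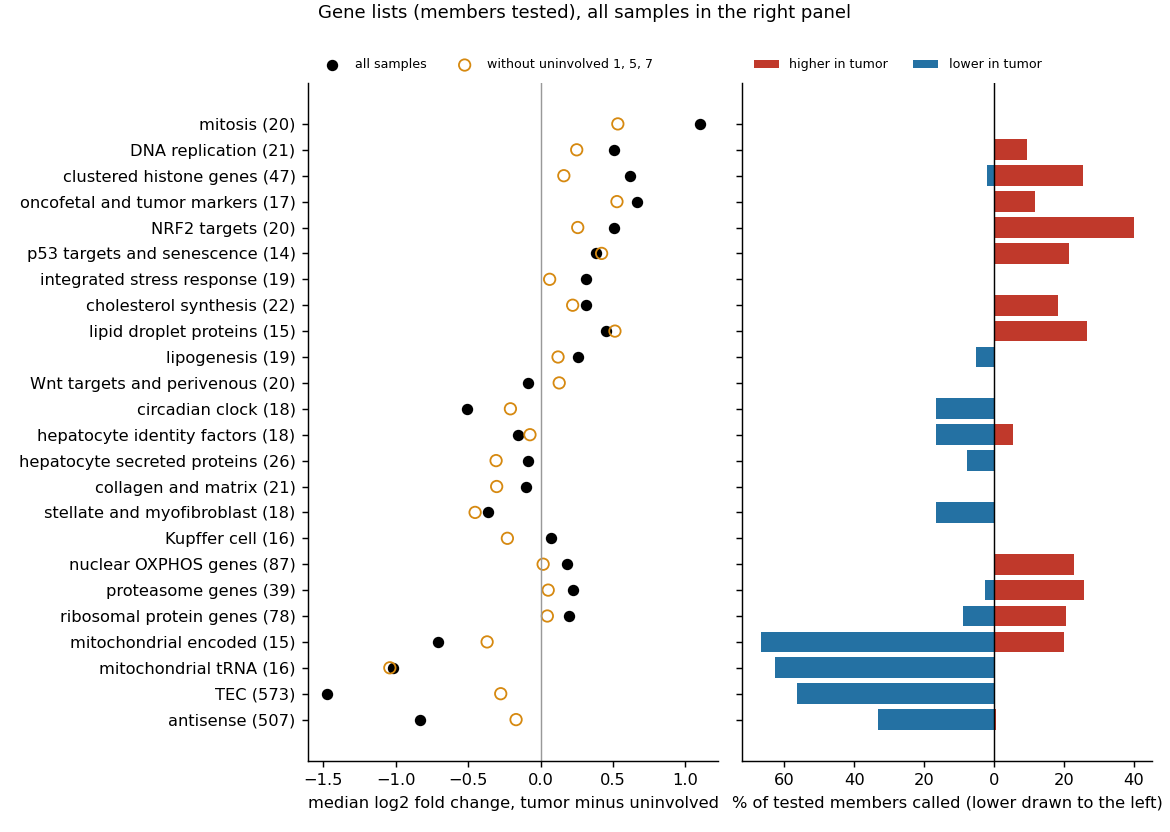
Left, median log2 fold change (tumor minus uninvolved) of 24 gene lists with the number of members tested, for all samples (black) and without uninvolved livers 1, 5 and 7 (orange rings). Right, percent of tested members called higher (red) or lower (blue) with all samples. The mitosis list has a median of 1.10 and no call, while TEC genes lie at -1.48 with all samples and -0.28 without the 3 livers.

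Genes controlled by p53, the factor that answers DNA damage, had 3 of 14 members up (median 0.38), beside 7.55% of all genes. Phlda3, an inhibitor of Akt, stood at 2.62 to 14.9 CPM in tumors and 1.21 to 4.52 in uninvolved samples (1.59, SE 0.42, edgeR adjusted p 0.022). It missed on leaving out liver 1, 5 or 7 singly (0.0561 to 0.0599) or together (1.02, adjusted p 0.336). Ccng1, cyclin G1, stood at 57.0 to 71.0 and 36.7 to 51.9 CPM, without overlap (0.39, SE 0.12, edgeR adjusted p 0.0348). It passed in 6 pairs and without livers 1, 5 and 7, but not in the 4 pairs (edgeR adjusted p 0.0576). Ccng1 also missed on leaving out any of 6 single samples (tumors 1, 5, 6 and 11, uninvolved 12, or the sum of 3 and 6, 0.052 to 0.0589). Of 15 listed growth-control drivers 2 rose, 0 fell and 13 did not pass (median 0.02), beside 7.55% of all genes higher. Nras rose by 0.51 (SE 0.10, edgeR adjusted p 0.00674), from 22.7 to 27.1 CPM to 30.5 to 43.4 CPM, and Ctnnb1, β-catenin, by 0.41 (SE 0.09, edgeR adjusted p 0.012), from 150 to 191 to 212 to 265 CPM. Neither overlapped between the groups, and both held in each leave-one-out fit, while without livers 1, 5 and 7 their folds were 0.47 and 0.27 and did not pass (0.0779 and 0.225).

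Of 20 Wnt target genes, those of the perivenous zone included, 0 passed in the unpaired fit (edgeR), with a median of -0.085 and 1 at an unadjusted p under 0.05. Over the 4 pairs, 5 of the 20 were lower and 0 higher (median -0.54), beside 8.95% and 9.21% of all genes in that fit. Glul, glutamine synthetase, made around the central vein under Wnt control, stood at 2105 CPM in tumor 6, 774 in tumor 7 and 195 to 439 in the other 5, against 301 to 816 in uninvolved samples (log2 fold change -0.06, SE 0.57, edgeR adjusted p 0.946). Axin2, a feedback inhibitor, was also highest in tumor 6, at 24.1 CPM, and lay between 3.14 and 15.3 in the other tumors and between 7.34 and 16.7 in uninvolved samples (-0.23, edgeR adjusted p 0.744). Glul and Axin2 changed sign between settings without passing, except that Axin2 passed in the 4 pairs (0.027). Glul ran from 802 to 1585 CPM in vehicle and low-risk livers.

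Feedback genes of the MAPK pathway, which carries growth factor signals, had 0 higher and 1 lower of 18, beside 10.5% of all genes lower. Phlda1 was lower in tumors, at 3.40 to 16.2 CPM against 9.81 to 30.9 (-1.46, SE 0.41, edgeR adjusted p 0.0275), and lower in 6 of 6 pairs. It missed without tumor 5 or uninvolved 5, 7 or 12 (0.0503 to 0.0814) and without livers 1, 5 and 7, where the fold was -1.33 (0.194). Dusp6 and Spry4, phosphatase and Sprouty inhibitors of the pathway, had log2 fold changes of 0.25 (edgeR adjusted p 0.264) and -0.25 (0.448), and Dusp6 passed in the 4 pairs (0.0494).

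Of 22 cholesterol synthesis and uptake genes 4 rose and 0 fell (median 0.32, beside 7.55% of all genes higher), and without livers 1, 5 and 7 1 rose. Fdps, farnesyl diphosphate synthase, ran from 11.2 to 29.7 CPM in tumors and 6.17 to 13.3 in uninvolved samples (0.83, SE 0.23, edgeR adjusted p 0.0268, 0.0731 without liver 5, 0.0687 without liver 7 and 0.222 without livers 1, 5 and 7). Stard4, a sterol carrier, rose by 0.59 (SE 0.15, edgeR adjusted p 0.0154). Stard4 stood at 54.0 to 82.2 CPM in tumors and 37.0 to 59.2 in uninvolved samples, and at 82.0 to 190 CPM in vehicle and low-risk livers.

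Lipogenesis had 0 higher and 1 lower of 19, beside 10.5% of all genes lower. Mlxipl, the carbohydrate-sensing factor ChREBP, fell by 1.23 (SE 0.19, edgeR adjusted p 0.00183), from 83.5 to 149 CPM to 42.5 to 73.7 CPM without overlap. Without livers 1, 5 and 7 its fold was -0.69 and missed (edgeR adjusted p 0.054). Fasn, fatty acid synthase, ran from 403 to 1409 and from 278 to 910 CPM and did not pass unpaired (0.53, SE 0.29, edgeR adjusted p 0.206). Within mice it was higher in 6 of 6 and passed in 6 pairs (0.46, SE 0.10, edgeR adjusted p 0.0268). Of 15 lipid droplet genes 4 rose and 0 fell (median 0.46, beside 7.55% of all genes higher), and without livers 1, 5 and 7 0 rose (median 0.51). Among the 4 were Plin5, a droplet coat protein (0.45, SE 0.12, edgeR adjusted p 0.0175, 0.0504 in 6 pairs and 0.0524 and 0.0532 without liver 1 or 5), and Cd36, the fatty acid importer (1.08, SE 0.32, edgeR adjusted p 0.0337, 0.165 in 6 pairs, called in 4 of 12 leave-one-out fits).

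Acot2, a mitochondrial acyl-CoA thioesterase, ran from 5.23 to 25.3 CPM in tumors and 2.13 to 6.84 in uninvolved samples (1.80, SE 0.38, edgeR adjusted p 0.00877), with 27.7% of stretches shared. Acadvl, the first enzyme of long-chain fatty acid oxidation, stood at 176 to 216 and 123 to 167 CPM, without overlap (0.40, SE 0.10, edgeR adjusted p 0.0135). Without livers 1, 5 and 7 neither Acot2 (1.47, edgeR adjusted p 0.172) nor Acadvl (0.26, edgeR adjusted p 0.253) passed. Plin1 and Adipoq, markers of fat cells, were also higher, at 0.0349 to 4.73 and 0 to 8.80 CPM in tumors and at most 0.391 and 0.273 CPM in uninvolved samples (edgeR adjusted p 0.0493 and 0.0314), both highest in tumor 5. Of the 11 fat and muscle markers 5 could be tested and 2 rose, beside 7.55% of all genes. The list's sum was 748 to 2587 CPM in tumors and 663 to 1436 in uninvolved samples. It was 2020 to 3754 CPM in low-risk and 2876 to 4296 in vehicle livers. Plin1 and Adipoq make up little of this sum, so it is no measure of fat cells. Plin1 missed on leaving out any of 10 single samples (0.0523 to 0.107) and Adipoq on leaving out tumor 5, liver 1, 5 or 7, or the sum of 3 and 6 (0.0522 to 0.0803), and the part of fat tissue in the lipid genes was not tested.

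Hepatocyte identity factors had 1 gene higher and 3 lower of 18 (median -0.15), beside 7.55% of all genes higher and 10.5% lower. Onecut1, a transcription factor of hepatocytes and bile ducts, fell by 0.97 (SE 0.28, edgeR adjusted p 0.0312, 0.14 in 6 pairs, called in 6 of 12 leave-one-out fits). Hnf4a, the central factor of hepatocytes, had a log2 fold change of -0.13 (edgeR adjusted p 0.52).

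Among secreted proteins 0 of 26 rose and 2 fell, beside 10.5% of all genes lower. These were Apoa1, of high-density lipoprotein (-0.55, SE 0.16, edgeR adjusted p 0.0271, called in 6 of 12 leave-one-out fits), and Apoc1 (-0.60, SE 0.18, edgeR adjusted p 0.0331, 0.0595 in 6 pairs). Apoc1 missed on leaving out tumor 1, 3, 5, 6 or 12 or uninvolved 5 or 12 (0.0517 to 0.0697). Hamp, the iron hormone hepcidin, stood at 126 to 561 CPM in tumors and 462 to 1201 in uninvolved samples (-1.41, SE 0.38, edgeR adjusted p 0.0231, 0.0612 and 0.0536 without liver 5 or 7, 0.154 without livers 1, 5 and 7). Otc, of the urea cycle, was higher, at 387 to 523 and 266 to 359 CPM (0.43, SE 0.12, edgeR adjusted p 0.0217), without overlap. Hsd3b5, a steroid enzyme of male liver, was at 1.05 to 21.6 CPM in tumors and 2.81 to 17.7 in uninvolved samples (-0.14, edgeR adjusted p 0.896), while vehicle and low-risk livers held 96.8 to 396 CPM. Tumor and uninvolved liver thus shared a low Hsd3b5, and 0 of the 22 male-biased genes passed between them in the unpaired edgeR fit, with 0 at an unadjusted p under 0.05 and 1 lower in each paired fit.

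Of 18 clock genes 0 rose and 3 fell in tumors (median -0.51, beside 10.5% of all genes lower), Per2 (-0.88, SE 0.24, edgeR adjusted p 0.0222), Bhlhe41 (-1.04, SE 0.29, edgeR adjusted p 0.0259) and Nr1d1, or Rev-erbα, at 8.24 to 37.8 against 20.8 to 78.9 CPM (-1.25, SE 0.39, edgeR adjusted p 0.0439, called in 3 of 12 leave-one-out fits). In 6 pairs 6 fell and 1 rose, beside 5.51% and 6.19% of all genes, and without livers 1, 5 and 7 0 fell and 1 rose (median -0.21). Per2 missed without liver 1 or 7 (0.0773 and 0.0639) and Bhlhe41 without liver 1 (0.0938). The labels do not give the time of day of sampling.

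Among stromal markers, 3 of 18 stellate and myofibroblast genes fell and 0 rose (median -0.36), beside 10.5% of all genes lower. In the 4 pairs 1 fell, and without livers 1, 5 and 7 1 fell. Bgn, the matrix proteoglycan biglycan, stood at 66.6 to 141 CPM in tumors and 149 to 237 in uninvolved samples (-0.83, SE 0.18, edgeR adjusted p 0.00956), without overlap, and at 39.1 to 89.0 CPM in vehicle and low-risk livers. Without livers 1, 5 and 7 its fold was -0.93 and missed (edgeR adjusted p 0.0586). Cygb, the globin of stellate cells, fell by 0.76 (SE 0.19, edgeR adjusted p 0.0164, 0.053 without liver 1). Acta2, of contractile myofibroblasts, and Lrat, which stores retinoid in stellate cells, had log2 fold changes of 0.20 (edgeR adjusted p 0.523) and -0.15 (0.698). None of 21 collagen and matrix genes passed in the unpaired edgeR fit, where 4 were lower at an unadjusted p under 0.05. In the 4 pairs 1 was higher and 1 lower, and without livers 1, 5 and 7 2 were lower. Col1a1 ran from 30.5 to 82.9 CPM and from 16.9 to 81.1 CPM, against 3.36 to 12.1 in vehicle and low-risk livers. The sum of the stellate list was 561 to 1031 CPM in tumors and 977 to 1096 in uninvolved samples.

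None of 16 Kupffer cell markers passed in the unpaired edgeR fit, and 2 were higher at an unadjusted p under 0.05. In the 4 pairs 3 were higher, beside 9.21% of all genes in that fit. Clec4f stood at 31.5 to 86.6 and 39.9 to 71.4 CPM (0.18, edgeR adjusted p 0.572). Gpnmb, of lipid-laden macrophages, ran from 12.1 to 53.5 CPM in tumors and from 23.2 to 91.2 in uninvolved samples (-0.70, SE 0.40, edgeR adjusted p 0.227), where vehicle and low-risk livers had at most 1.65 CPM. Of 16 sinusoidal endothelial markers 1 fell, beside 10.5% of all genes, the Fc receptor Fcgr2b (-0.38, SE 0.10, edgeR adjusted p 0.0184, 0.0625 without liver 1). Of 14 T and NK cell genes 1 fell, again beside 10.5% of all genes. It was Cd3e, at 0.275 to 0.939 and 0.694 to 1.20 CPM (edgeR adjusted p 0.0355, 0.0558 in 6 pairs, called in 4 of 12 leave-one-out fits). Of 14 B cell genes 0 passed in the unpaired edgeR fit, with 1 lower at an unadjusted p under 0.05, 1 lower in 6 pairs and 1 lower without livers 1, 5 and 7.

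Many long noncoding genes were lower in tumors, beside 10.5% of all genes. Of 573 genes annotated TEC, a GENCODE class awaiting experimental support, 323 were lower and 1 higher (median -1.48), of 507 antisense genes 168 lower and 3 higher (-0.83), of 66 sense intronic genes 38 lower and 0 higher (-1.48) and of 474 lincRNA genes 102 lower and 12 higher (-0.45). Malat1 (chromosome 19, 5795690 to 5802672), the nuclear RNA, stood at 828 to 1286 CPM in tumors (-1.74, SE 0.34, edgeR adjusted p 0.00692, 0.0688 in 6 pairs). Neat1, the scaffold of paraspeckles, stood at 101 to 147 CPM in tumors and 168 to 558 in uninvolved samples, without overlap (-1.61, SE 0.28, edgeR adjusted p 0.00408). These differences rest on livers 1, 5 and 7. Without them TEC genes had 2 lower and 3 higher (median -0.28), antisense genes 2 and 3 (-0.17), Malat1 a log2 fold change of -0.26 (0.472) and Neat1 -0.46 (0.0871).

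Uninvolved libraries 3 and 6 were nearly alike, so the 6 pairs by mouse number are not 6 independent ones. Rnu12, Snora23, mt-Nd6 and mt-Rnr1 were lower in 6 of 6 tumors than in the uninvolved liver of the same mouse, and Cela1, Esco2, Spp1, Rpl24, Rpl22l1, Tm4sf4, Tubb2a and Fasn higher in 6 of 6. For mt-Nd6, Esco2, Tm4sf4 and Tubb2a the naming rule asked for the same sign in all 6 pairs, so their agreement is no result. Mki67 was higher in 4 and lower in 2, mice 6 and 7. Glul was higher in mouse 6, by 2.79 on the scale of log2(CPM + 0.5), and mouse 7, by 0.37, and lower in the other 4.

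**Figure D5:**
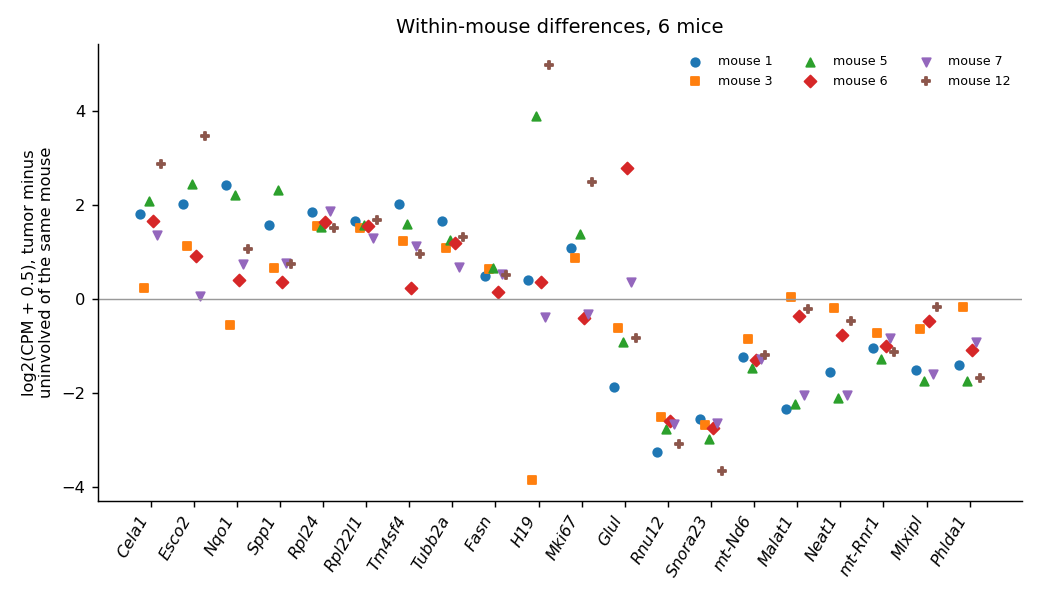
Difference in log2(CPM + 0.5), tumor minus uninvolved liver of the same mouse, for 20 genes in 6 mice, each mouse a symbol, with 0 as a grey line. H19 runs from -3.85 to 4.98, while Rnu12, Snora23, mt-Nd6 and mt-Rnr1 lie under 0 and Rpl24 and Rpl22l1 above 0 in all 6 mice.

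Set against the range of the 11 vehicle and low-risk livers, the genes called between tumor and uninvolved liver were often ones where the uninvolved mean, and not the tumor mean, lay outside that range. This held for 629 of 1235 genes higher in tumors (50.9%) and 1072 of 1726 lower (62.1%), beside 25.8% of all genes tested. The tumor mean alone lay outside in 151 of the higher (12.2%) and 175 of the lower genes (10.1%), beside 10.3% of all. Of the 183 genes higher in every fit 108 (59.0%) had the uninvolved mean alone outside and 6 (3.28%) the tumor mean alone, and of the 142 lower 80 (56.3%) and 9 (6.34%). The uninvolved libraries also lay apart from those 11 in totals and in mitochondrial and small noncoding RNA shares. The part of these library differences in the counts was not tested. Ddias, a gene induced by DNA damage and chosen after its values were seen, was a gene of the set with tumors apart from all others, at 4.14 CPM in tumors against 1.13 in uninvolved, 1.18 in low-risk and 1.16 in vehicle livers (log2 fold change 1.81, SE 0.35, edgeR adjusted p 0.00669).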

How the data were processed

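Total RNA libraries (TruSeq Stranded Total RNA, per the labels' protocols) were deposited as a table of read counts for 55536 genes in 75 libraries. Per the submitters' processing notes, Trim Galore, HISAT2, featureCounts and mm10 were used, with versions and settings not given in the sources used here, and the name of the deposited count table says that ComBat-seq, a batch adjustment, was applied. All gene identifiers matched GENCODE M21. Uninvolved libraries 3 and 6 were summed, which left 12 samples.

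Genes were tested with edgeR 4.0.16 in R 4.3.3 (filterByExpr, TMM scaling, robust quasi-likelihood F test, Benjamini-Hochberg, threshold 0.05), and DESeq2 1.42.0 was an alternative. Library measures had two-sided exact permutation tests. A 6-pair fit took the mouse as a block, the pairing coming from the mouse number in the titles. Tumor and uninvolved liver of a mouse deviated together with correlations of 0.028, -0.024, 0.012, -0.325, 0.661 and 0.086 in mice 1, 3, 5, 6, 7 and 12. Named genes were those with the largest changes at 5 CPM or more, up to 2 members of each list and a fixed set of liver genes. Genes that held in every paired fit with the same sign in each of 6 pairs were also named. Members and lists were chosen with earlier results of these data known. Shared stretches are the 50-base stretches of a gene found in transcripts of another locus. On simulated counts for 16362 genes the unpaired fit recovered 70 of 100 genes changed 2-fold and 95 of 100 changed by 2 on the log2 scale. False calls were 9 in that whole run. The simulated samples held no split like that of livers 1, 5 and 7 and no GC trends, so the run does not cover these. Alternatives were other scalings, filters and tools, thinned counts, blocks, left-out samples and GC content and length trends removed. Some genes covered by this naming rule are not reported here.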

Additional observations from a re-analysis of the deposited data

Results flagged for a closer look

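Of 200 groups of values examined, 13 held a sample far from the rest of its group, where chance gives about 1 in 20. Tumor 7 was the low one in Mki67 (6.294 CPM, next 27.78), Top2a (3.59, next 23.17), Esco2 (0.7978, next 9.489) and Prim1 (2.571, next 5.534), and the high one in Spry4 (10.11, next 5.777). The sum of uninvolved livers 3 and 6 was high in Nqo1 (23.51, next 10.96), Slc7a11 (8.132, next 3.389) and Cyp3a16 (0.09887, next 0.02569). Uninvolved liver 1 was high in mt-Co3 (70.23, next 17.54) and Rpl22l1 (5.902, next 5.03), and uninvolved liver 12 in Rnu12 (15.66, next 10.19). Tumor 11 was low in Lrrn3 (1.221, next 2.181) and tumor 3 in Mylip (8.887, next 11.41).

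A 10-month library from a vehicle mouse that is labelled tumor entered no comparison. It held 378.7 CPM of H19, where vehicle livers had at most 0.5648, with a total of 11.51 M counts of which 14.06% were mitochondrial.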

How the results depend on the processing

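The unpaired count of 2961 genes became 1920 with the replicate block over 6 pairs, 1741 with that block on thinned counts, 1610 over protein-coding genes and 5346 with all 10-month groups fitted together. It was 1057 without uninvolved livers 1, 5 and 7, 6239 without 3, 6 and 12, and 4868 without tumor 7 and livers 3 and 6 (all 3 chosen after seeing the data), and 1580 (without uninvolved 1) to 3602 (without uninvolved 12), or 3948 without the sum of 3 and 6, on leaving out single samples. The paired count of 1920 became 3103 with DESeq2, 3037 over 4 pairs, 2933 with trends removed, 2290 with no replicate block and 395 to 1673 on leaving out single mice. The share of counts in the top 10 genes, -1.42 points, passed with libraries 3 and 6 separate (-1.6612) and without tumor 7 (-1.7795). It ranged from -1.0831 to -1.7795 on leaving out single samples, and was -1.0681 without the sum of 3 and 6. Of 84 named genes called, 84 kept the call under RLE scaling, 80 under upper-quartile scaling, 62 with no filter, 68 with the 6-pair block, 64 with the 4-pair block and 28 without livers 1, 5 and 7, and none reversed. The genes that changed sign were never called unpaired with all samples. Glul was 0.067 with libraries 3 and 6 separate, 0.155 without livers 1, 5 and 7, 0.035 with trends removed and -0.806 to 0.088 on leaving out a sample. Axin2 was 0.003 and Col1a1 -0.118 without livers 1, 5 and 7. Hsd3b5 was 0.07 with the block, 0.046 with it on thinned counts, 0.037 with 3 and 6 separate, 0.337 without livers 1, 5 and 7, 0.154 with block and trends removed and -0.534 to 0.229 on leaving out a sample. Alb was -0.009 under upper-quartile scaling, -0.034 with the block, -0.044 with it on thinned counts, -0.006 with 3 and 6 separate, -0.005 over protein-coding genes, -0.08 without livers 1, 5 and 7 and -0.044 and -0.045 on leaving out a sample. Krt19 was 0.057 with the block, 0.085 with it on thinned counts, 0.157 without livers 3, 6 and 12, 0.068 with trends removed, 0.185 with block and trends removed and -0.224 to 0.101 on leaving out a sample. The cause was not tested.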
